A study of Mus musculus with 42 samples.

Results

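The genes described here are 10 transcripts that are widely used to identify macrophages, followed through every library of the study. They are the gene rows Cd68, Emr1 (the older symbol of Adgre1, which encodes F4/80), Csf1r, Mrc1, Lyz2, Cd14, Fcgr1, Mertk, Itgam and Cd163, chosen by name among the 21674 genes of the deposited table. All 10 were present in the table. The choice used no measured value, although it was made with earlier results of these data known.

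The study asked how the inner lining of the mouse carotid artery responds to a fall in blood flow and what recruited blood cells contribute to that response. Partial ligation of one carotid artery lowered its flow, the contralateral carotid carried high flow, and sham-operated arteries kept normal flow. RNA was flushed from the intima with Trizol, each arterial library is a pool of 3 to 5 flushes, and 42 libraries were analysed, 7 of them from cultures. Counts on genes ranged from 4064477 to 6794904 in the untreated pools, from 12286104 to 19035957 in the treated pools and from 10318685 to 18633538 in the 7 day pools.

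The untreated mice were young male C57BL/6J mice (Jackson Laboratories) taken 48 hr after surgery, with 3 low-flow, 3 high-flow and 3 sham pools that are called A to I by the letters of their columns. The treated mice were of the same strain, sex, age and time point, with 2 pools in each group. They had received the platelet-depleting anti-GPIba antibody at ligation, the granulocyte-depleting anti-Gr1 antibody on the day before ligation, or non-specific IgG. Other mice had received clodronate liposomes, which kill cells that engulf them, or PBS liposomes, both at ligation. High-flow arteries were sequenced only for the IgG and the PBS liposome groups, and a further pool each of PBS and clodronate liposome mice was sequenced with reads of 100 bp in place of 150 bp. The 7 day mice were adult males and females on a C57 background. Rbfox2 EC-KO mice carried Rbfox2 lox/lox together with Cdh5(PAC)-CreERT2 and the Rosa26-mTmG reporter, and their controls were littermates with Rosa26-mTmG and Rbfox2 lox/lox but no Cre, so both groups carried the floxed alleles. The Cre is driven by an endothelial promoter, so deletion was directed at endothelial cells and not at macrophages. There were 3 low-flow and 2 high-flow pools per genotype, numbered 1, 4 and 5 in the table. The cultures were a TetOn-SV40 immortalized aortic endothelial line derived from Cdh5(PAC)-CreERT2, mTmG mice, primary aortic endothelial cells sorted on Cd31 and Icam2 after 7 days in culture from EC-KO and control mice, and eGFP-sorted primary cells after 5 days, with 1 library each. Nothing in the labels says that the pools of a group were from separate experiments, so p-values measure the spread between pools. The high-flow arteries were the contralateral arteries of ligated mice. The labels do not say which low-flow and high-flow pools share mice, so the reported tests took the pools as unpaired.

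Macrophages arise from circulating monocytes or from precursors seeded in tissues before birth, and the arterial wall holds a resident population while an inflamed wall also recruits monocytes. Csf1r binds Csf1 and Il34 and keeps the lineage alive. Cd14, Fcgr1 and Itgam recognise lipopolysaccharide, IgG and complement-coated or fibrinogen-coated surfaces, Mertk binds apoptotic cells through Gas6 and Pros1, and Mrc1 and Cd163 are endocytic receptors for mannosylated glycoproteins and for haptoglobin-haemoglobin complexes. Cd68 is a lysosomal membrane glycoprotein, Emr1 is an adhesion receptor of the cell surface, and Lyz2 encodes a secreted lysozyme. None of the 10 is restricted to macrophages: Lyz2, Cd14, Itgam and Fcgr1 are also read in monocytes or neutrophils, and Mertk, Cd14 and Cd68 can be read in endothelial cells.

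Many promoters of this lineage carry the purine-rich core bound by the transcription factor Spi1 (PU.1), GAGGAA. The 90 bases upstream of the start site are shown for 3 members that hold these letters and for Mertk as 1 of those that do not. They are the RefSeq promoter sequences of GRCm38.p6, written 5′ to 3′ on the strand of the gene, and capitals mark GAGGAA or its reverse complement TTCCTC. Itgam lies at chr7:128062550-128062639 on the plus strand, Fcgr1 at chr3:96293970-96294059 on the minus strand, Mrc1 at chr2:14229324-14229413 on the plus strand and Mertk at chr2:128698825-128698914 on the plus strand.
Itgam: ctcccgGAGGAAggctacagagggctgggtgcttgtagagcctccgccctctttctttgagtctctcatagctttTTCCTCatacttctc
Fcgr1: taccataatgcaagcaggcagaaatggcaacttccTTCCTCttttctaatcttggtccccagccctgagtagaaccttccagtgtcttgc
Mrc1: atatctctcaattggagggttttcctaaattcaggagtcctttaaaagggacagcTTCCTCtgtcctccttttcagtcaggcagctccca
Mertk: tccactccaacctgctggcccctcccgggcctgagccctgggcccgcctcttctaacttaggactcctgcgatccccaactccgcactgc

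A promoter sequence was matched for 7 of the 10 members, all but Emr1, Csf1r and Cd14. Searched on both strands over the 250 bases upstream of the start, GAGGAA was found 3 times for Mrc1, 2 times for Itgam, once for Fcgr1 and once for Cd68, where it lies 225 bases before the start. It was not found in these windows for Lyz2, Mertk and Cd163. Of all 32851 windows of this length, 23.3% held at least 1 copy, 3.54% at least 2 and 0.429% at least 3. Among the other mononuclear phagocyte genes with a promoter, 8 of 14 held it. Of the members with these letters, Cd68, Fcgr1 and Itgam were higher at low flow at 48 hr, and Mrc1, with 3 copies, did not pass the test. Of those without them in this window, Lyz2 was higher, Mertk did not pass the test and Cd163 was too low to be tested. A relation between the letters and the response to flow was not tested. A match of letters is a description of the sequence and not a binding site.

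In the untreated pools at 48 hr, 7 of the 10 members were higher in low-flow intima than in both the high-flow and the sham intima, namely Csf1r, Cd14, Fcgr1, Itgam, Emr1, Cd68 and Lyz2. Mrc1 and Mertk did not pass the test, and Cd163 was too low to be tested. Levels are given as FPKM, which scales the deposited counts by each gene's effective length and by library size, and tests are those of edgeR on the counts, as log2 fold-change ± SE with an adjusted p under 0.05 as threshold.

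Csf1r, the receptor for colony-stimulating factor 1, stood at 12.8, 23.7 and 29.2 FPKM in low-flow pools A, B and C. It was at 0.692, 1.36 and 1.12 FPKM in high-flow pools D, E and F, and at 1.40, 1.78 and 5.11 FPKM in sham pools G, H and I. Every low-flow pool lay above every other pool, and the log2 fold-change was 5.02 ± 0.32 against high flow (32.4-fold, adjusted p = 2.11e-06) and 3.68 ± 0.49 against sham (adjusted p = 0.0017). Sham pool I was the highest of its group for Csf1r and also for Cd14, Fcgr1, Itgam, Emr1, Cd68 and Lyz2. In sham pool I the 10 members took 0.0584% of counts, against 0.0206% and 0.0209% in the other sham pools. Monocyte markers summed to 30.8, 32.2 and 71.5 FPKM in the sham pools. The 12 measured neutrophil markers summed to at most 87.1 FPKM in the sham pools against 508 to 1210 FPKM at low flow. The part of these markers in the members' values was not tested.

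Cd14, the co-receptor for lipopolysaccharide, read 35.5, 71.7 and 92.5 FPKM at low flow. It read 14.9, 11.6 and 10.1 FPKM at high flow and 15.8, 13.8 and 25.9 FPKM in sham arteries. Cd14 was thus well above 0 in all 9 pools, and its difference from high flow, a log2 fold-change of 3.11 ± 0.30 (8.62-fold, adjusted p = 1.74e-05), was the smallest of the 7 called members. Against sham it was 2.54 ± 0.34 (adjusted p = 0.00173).

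Fcgr1, the high-affinity receptor for IgG, rose from 0.192, 0 and 0.541 FPKM at high flow to 2.47, 2.95 and 6.17 FPKM at low flow. The high-flow values rest on 2, 0 and 6 counts, and the 3 counts taken here as the smallest readable signal bound what these pools can show. The sham pools held 0.873, 1.21 and 1.51 FPKM, all above the high-flow pools and below the low-flow pools. Low flow exceeded high flow by 4.64 ± 0.57 on the log2 scale (adjusted p = 9.37e-05) and sham by 2.31 ± 0.29 (adjusted p = 0.00146).

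Itgam, the alpha chain of the integrin Mac-1, had 5.77, 6.2 and 10.3 FPKM at low flow against 0, 0.543 and 0.340 FPKM at high flow. The sham pools had 0.575, 0.434 and 2.12 FPKM. High-flow and sham pools overlapped, and the low-flow pools did not overlap with either. The chain that Itgam pairs with, Itgb2, went from a mean of 1.23 FPKM at high flow to 36.5 FPKM at low flow (log2 fold-change 5.56 ± 0.44, adjusted p = 5.21e-06).

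Emr1 stood at 3.23, 4.87 and 9.90 FPKM at low flow, at 0.378, 0.635 and 1.07 FPKM at high flow and at 0.765, 1.67 and 2.97 FPKM in sham arteries. For Cd68 the values were 51.9, 65.6 and 95.5 FPKM at low flow, 2.99, 4.18 and 5.35 FPKM at high flow and 10.7, 6.26 and 29.2 FPKM in sham arteries. In both genes pool C was the highest and pool A the lowest of the low-flow pools. Lyz2, the lysozyme of myeloid cells, was the most abundant member, with 2128, 3258 and 1733 FPKM at low flow. Its levels were 33.4, 90.6 and 102 FPKM at high flow and 139, 134 and 494 FPKM in sham arteries. Unlike Emr1 and Cd68, it was lowest in pool C. It exceeded high flow by a log2 fold-change of 5.86 ± 0.67 (57.9-fold, adjusted p = 5.71e-05) and sham by 4.10 ± 0.75 (adjusted p = 0.00468). Lyz2 alone made up 77.5% to 90.7% of the members' counts in the low-flow pools. Its tandem neighbour Lyz1, whose reads could in part be shared with it, held 0.288% to 1.70% as many counts as Lyz2 at low flow and 5.38% to 16.5% at high flow.

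The remaining members behaved otherwise. Mertk, a receptor tyrosine kinase for apoptotic cells, read 3.67, 2.90 and 12.5 FPKM at low flow. At high flow it read 7.02, 12.6 and 10.8 FPKM and in sham arteries 9.04, 11.6 and 6.91 FPKM. The 3 groups overlapped, with log2 fold-changes of -0.16 ± 0.29 against high flow (adjusted p = 0.663) and 0.02 ± 0.29 against sham (adjusted p = 0.96). Scaled by library totals instead of by TMM, Mertk was at -0.67 and -0.53, with neither past the threshold. Pool C, the low-flow pool with the most Cd68 and Emr1, was also the one with the most Mertk. It stood apart in other respects too, with 15489 genes read against 14135 in pool A and 13557 in pool B. Mrc1, the mannose receptor, spanned 0.218 to 1.26 FPKM at low flow, 0.0908 to 1.19 FPKM at high flow and 0.761 to 1.19 FPKM in sham arteries, where low minus high flow came to 0.74 ± 0.60 on the log2 scale (adjusted p = 0.332). Cd163, the haemoglobin scavenger receptor, held 1, 2 and 15 counts at low flow, 3, 10 and 17 at high flow and 5, 10 and 8 in sham arteries. It fell below the count filter of edgeR in all 3 comparisons, and its groups overlapped.

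**Figure D1:**
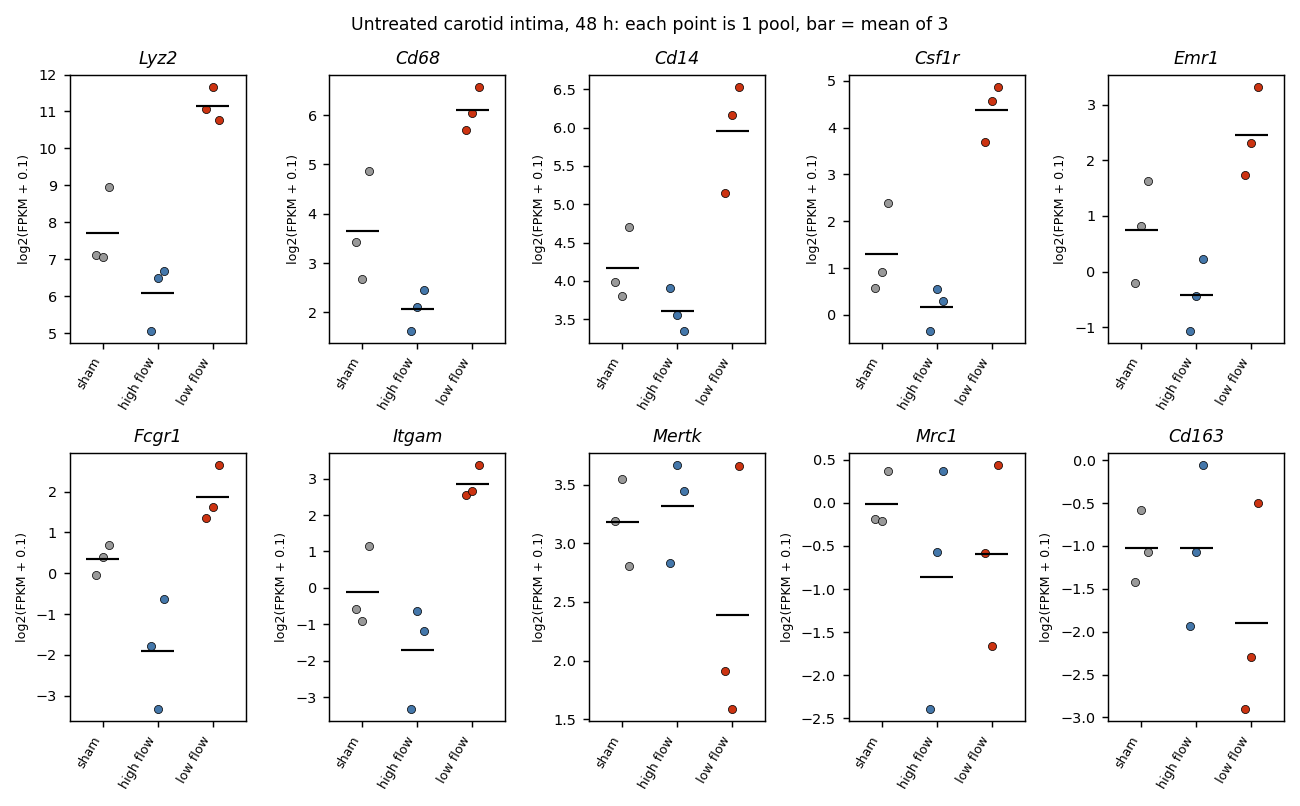
Level of each member in the 9 untreated pools 48 hr after surgery, as log2(FPKM + 0.1) on the vertical axis. Each point is 1 pool of arterial flushes, the bar is the mean of 3 pools, and the vertical scale differs between genes. In the panels of Lyz2, Cd68, Cd14, Csf1r, Emr1, Fcgr1 and Itgam the low-flow points lie above all others, and in those of Mertk, Mrc1 and Cd163 the groups overlap.

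In the comparison of low with high flow, 23.6% of the 11236 genes tested were called higher, against 7 of the 9 members tested. The median log2 fold-change of the members tested was 4.64, that of all genes was -0.07. Against sham, 20.6% of the genes tested were called higher, and the same count of members, 7 of 9, with a median of 2.54 against -0.04 over all genes. Scaling by library totals in place of TMM moved the median gene by -0.62 against high flow and -0.66 against sham, which is less than the change of each called member, and by no more than 0.11 in either direction in the other comparisons. The groups of the 7 did not overlap in either comparison, with low flow higher, which held for 12.2% of genes against high flow and 7.49% against sham. Leaving out each of the 9 pools in turn left 7 members called in both comparisons.

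No member was called between high flow and sham with edgeR, where 0% of the genes tested were called. Of 8 members tested 4 were under 0.05 before adjustment, beside 7.87% of genes, and DESeq2 likewise called 0, beside 0.825%. These 4, and Itgam, were lower at high flow, with log2 fold-changes of -1.86 ± 0.55 for Cd68 (adjusted p = 0.362), -1.75 ± 0.55 for Lyz2 (adjusted p = 0.394), -1.73 ± 0.81 for Itgam (adjusted p = 0.649), -1.35 ± 0.53 for Emr1 (adjusted p = 0.546) and -1.35 ± 0.51 for Csf1r (adjusted p = 0.517). These pools also served in the comparisons with low flow, so the 3 sets of values are not independent.

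Since these are bulk libraries, fewer macrophages and less RNA per macrophage cannot be told apart in any of these comparisons. The 10 members together took 0.204% to 0.328% of counts in the low-flow pools, 0.00826% to 0.0168% in the high-flow pools and 0.0206% to 0.0584% in sham pools. The intimal origin of the RNA was checked with 11 endothelial markers, which summed to 1492 to 2020 FPKM at low flow, 3835 to 4245 FPKM at high flow and 3447 to 4260 FPKM in sham pools, with none at 0 in any of these pools. Markers of other cells moved with the flow comparison: neutrophil markers summed to 508 to 1210 FPKM at low flow and 18.1 to 39.7 FPKM at high flow, with 1 to 4 of the 12 at 0 in both groups, and fat cell markers summed to 1.12 to 2.09 FPKM at low flow and 76.8 to 1080 FPKM at high flow. Smooth muscle markers summed to 1444 to 2699 FPKM at low flow and 317 to 380.0 FPKM at high flow, with 3 of 6 called higher, and erythroid markers to 865 to 3756 FPKM and 6912 to 12759 FPKM, with 4 of 5 called lower. Their part in the members' values was not tested.

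Among 12 ligands and partner chains of the members, 11 were tested between low and high flow, of which 4 rose and 3 fell, with a median log2 fold-change of -0.15. The 4 that rose were the signalling adaptors Tyrobp (6.01 ± 0.48, adjusted p = 5.26e-06) and Fcer1g, the gamma chain that carries Fcgr1 (5.67 ± 0.58, adjusted p = 2.7e-05), with Itgb2 and the lectin Lgals3 (4.60 ± 0.34, adjusted p = 4.09e-06). The 3 that fell were the Mertk ligands Gas6 (-2.47 ± 0.36, adjusted p = 0.000281) and Pros1 (-0.85 ± 0.23, adjusted p = 0.0123), and the cytokine Tnfsf12 (-1.70 ± 0.30, adjusted p = 0.000997). The Csf1r ligand Csf1 had a log2 fold-change of -0.15 ± 0.20 (adjusted p = 0.565) from a mean of 46.05 FPKM at high flow, and the other Csf1r ligand, Il34, was at or under 0.135 FPKM in each of the low-flow and high-flow pools and was not tested. The receptor partners of Cd14, Tlr4 and Ly96, had values of -0.37 ± 0.26 (adjusted p = 0.266) and -0.32 ± 0.26 (adjusted p = 0.325).

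Of 19 other mononuclear phagocyte genes in the table, 17 were tested between low and high flow and 14 rose, with a median of 4.49, among them the cathepsin Ctss (5.90 ± 0.61, adjusted p = 2.7e-05), the lysosomal protein Laptm5 (5.72 ± 0.52, adjusted p = 1.23e-05) and Cd52 (5.53 ± 0.41, adjusted p = 4.02e-06). Of 8 monocyte genes 7 rose, with a median of 5.08, including the chemokine receptors Cx3cr1 (5.37 ± 0.45, adjusted p = 7.15e-06) and Ccr2 (5.16 ± 0.37, adjusted p = 3.16e-06). The list of resident vessel wall macrophage genes differed in count: of 5 tested, F13a1 rose (2.60 ± 0.39, adjusted p = 0.000334) and 3 fell, among them the hyaluronan receptor Lyve1 (-2.89 ± 0.39, adjusted p = 0.000186) and Cbr2 (-2.09 ± 0.34, adjusted p = 0.000552), with a median of -1.97. Of 11 genes of inflammatory activation only 3 passed the count filter, and all 3 rose. Of 8 genes of alternative activation 6 passed it and 5 rose, so genes of both lists were among those called. Of 12 neutrophil genes 7 passed the filter and all 7 rose, with a median of 5.82. A gene near 0 at high flow can pass the filter through the low-flow pools alone, so the counts of these lists are descriptions.

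Treated mice gave a second, separate look at flow, since IgG and PBS liposome mice have both arteries. In IgG mice 7 of the 10 members were higher at low flow, beside 22.8% of the 13401 genes tested, and in PBS liposome mice 6 were higher, beside 19.6%. The 6 that were called in both were Csf1r, Cd14, Fcgr1, Itgam, Cd68 and Lyz2. Emr1, the seventh in IgG mice (2.72 ± 0.94, adjusted p = 0.0397), had 2.45 ± 0.94 in PBS liposome mice (adjusted p = 0.0645). The low-flow and high-flow libraries of these mice came from different sequencing runs, so flow and run cannot be told apart here, whereas the untreated pools shared a run. Other markers moved with flow in IgG mice: smooth muscle markers summed to 2669 to 2853 FPKM at low flow and 263 to 408 FPKM at high flow, neutrophil markers to 132 to 459 and 5.62 to 67.8 FPKM, and endothelial markers to 1795 to 2145 and 5639.6 to 5809.8 FPKM. In PBS liposome mice the same sums were 1829 to 3619 and 259 to 514 FPKM, 177 to 507 and 6.39 to 18.9 FPKM, and 1700.1 to 1803 and 3928 to 4939 FPKM. Their part was not tested.

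Csf1r stood at 47.3 and 41.1 FPKM in the low-flow IgG pools and at 1.72 and 4.25 FPKM in the high-flow IgG pools (log2 fold-change 3.79 ± 0.59, adjusted p = 0.00138). In PBS liposome mice it was at 15.3 and 29.5 FPKM at low flow and 2.11 and 5.31 FPKM at high flow. Mertk was lower at low flow in both, with 21.9 and 19.0 against 28.7 and 51.6 FPKM in IgG mice (-1.07 ± 0.49, adjusted p = 0.102) and 16.9 and 9.36 against 29.9 and 25.2 FPKM in PBS liposome mice (-0.96 ± 0.49, adjusted p = 0.15), without passing the test. Its groups did not overlap in either, nor did those of 74.1% and 75.3% of genes. High-flow IgG pool 1 was low for most members, with Mrc1 and Cd163 at 0 counts, while pool 2 had 128 and 81 counts of them. Without high-flow IgG pool 1 or without either low-flow IgG pool Emr1 lost its call, leaving 6 members. Without high-flow IgG pool 2, 9 were called, Mrc1 and Cd163 among them against the lone pool at 0 counts, and without high-flow PBS pool 1, 4 remained in the PBS liposome comparison, with Csf1r and Itgam lost.

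Platelet depletion lowered most of the members. Between low-flow anti-GPIba and low-flow IgG intima, 6 of the 10 members were called lower, beside 10.5% of genes tested, and the members' median log2 fold-change was -2.55 against -0.04 over all genes. The 6 were Itgam, Csf1r, Lyz2, Fcgr1, Cd14 and Cd68.

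Itgam, whose product also binds the platelet receptor GPIb, went from 17.5 and 11.7 FPKM with IgG to 0.537 and 0.0366 FPKM with anti-GPIba, where it had 43 and 3 counts (log2 fold-change -5.70 ± 0.99, 51.8-fold, adjusted p = 0.015). Csf1r went from 47.3 and 41.1 FPKM to 4.39 and 1.71 FPKM (-3.89 ± 0.59, 14.8-fold, adjusted p = 0.0125). Lyz2 went from 1988 and 1869 FPKM to 125 and 231 FPKM (-3.47 ± 0.64, adjusted p = 0.0173). Pool 2 of the anti-GPIba mice was thus lower than pool 1 in Itgam and Csf1r and higher in Lyz2.

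Cd14 fell from 76.3 and 39.8 to 10.2 and 7.61 FPKM (-2.73 ± 0.50, adjusted p = 0.0173), Fcgr1 from 4.69 and 4.73 to 0.394 and 0.634 FPKM (-3.22 ± 0.72, adjusted p = 0.0257), and Cd68 from 52.2 and 41.4 to 8.59 and 9.80 FPKM (-2.37 ± 0.42, adjusted p = 0.0157). Emr1 had 6.87 and 6.03 FPKM with IgG and 2.06 and 0.999 FPKM with anti-GPIba (-2.10 ± 0.91, adjusted p = 0.12). Mrc1 had 2.48 and 1.52 against 0.405 and 0.546 FPKM (-2.09 ± 1.19, adjusted p = 0.223). Neither passed the test, and their groups did not overlap, which held for 74.2% of the genes tested in this comparison of 2 pools with 2. Mertk, with 21.9 and 19.0 against 17.8 and 20.9 FPKM, overlapped (-0.11 ± 0.49, adjusted p = 0.89), and so did Cd163 (-0.12 ± 1.40, adjusted p = 0.956).

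With 2 pools in each group, these calls rested on every library. Leaving out any 1 of them left a lone pool in its group, and fewer members and fewer of all genes were then called. The partner chains Itgb2 (-3.94 ± 0.42, adjusted p = 0.00361), Fcer1g (-3.92 ± 0.54, adjusted p = 0.00743) and Tyrobp (-3.72 ± 0.51, adjusted p = 0.00743) fell with the members, whereas the ligands Gas6 (1.73 ± 0.44, adjusted p = 0.0317) and Pros1 (0.66 ± 0.20, adjusted p = 0.0435) rose. In all, 4 of 11 ligands and partners tested rose and 4 fell. Of the 19 other mononuclear phagocyte genes 11 fell and 2 rose, with a median of -2.83, and 5 of 8 monocyte genes fell. Of 8 resident macrophage genes 0 were called, with a median of 0.35. Neutrophil genes moved too, 6 of 11 falling, and their sum was 132 to 459 FPKM with IgG and 8.55 to 21.2 FPKM with anti-GPIba, with 1 to 3 of 12 at 0. The endothelial sum was 1795 to 2145 FPKM with IgG and 3336 to 3455 FPKM with anti-GPIba, and Pecam1 (1.35 ± 0.33, adjusted p = 0.0304) and Tek (0.94 ± 0.25, adjusted p = 0.0345) rose. Smooth muscle markers summed to 2669 to 2853 FPKM with IgG and 423 to 597 FPKM with anti-GPIba, with 2 of 7 called lower. The part of these markers in the members' values was not tested.

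Clodronate liposomes gave differences of similar size with fewer calls. Against PBS liposomes 2 of 10 members were called lower, Cd14 and Csf1r, beside 0.119% of genes tested, and the members' median log2 fold-change was -2.57 against -0.02 over all genes. An unadjusted p under 0.05 was found for 7 members, beside 14.9% of genes, and DESeq2 called 6, beside 3.45%. A fit on the compared groups alone called 0 members, beside 0% of genes, and scaling by library totals called 1.

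Cd14 went from 36.0 and 108 FPKM with PBS liposomes to 5.88 and 3.98 FPKM with clodronate (-3.97 ± 0.53, adjusted p = 0.0367), below each of the 4 high-flow pools of treated mice, the lowest of which was at 6.38 FPKM. Csf1r went from 15.3 and 29.5 FPKM to 1.67 and 1.83 FPKM (-3.78 ± 0.60, adjusted p = 0.0484). Cd68 had 24.3 and 41.9 FPKM with PBS liposomes and 6.43 and 7.19 FPKM with clodronate (-2.38 ± 0.42, adjusted p = 0.064). The groups did not overlap in any of these genes.

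Lyz2 had 1179 and 1972 against 194 and 206 FPKM (-3.08 ± 0.63, adjusted p = 0.0931), Fcgr1 2.19 and 3.05 against 0.301 and 0.367 FPKM (-3.06 ± 0.74, adjusted p = 0.133), Itgam 5.14 and 8.97 against 0.767 and 1.51 FPKM (-2.73 ± 0.86, adjusted p = 0.23) and Emr1 3.27 and 3.69 against 0.561 and 0.846 FPKM (-2.40 ± 0.94, adjusted p = 0.289). All 4 were without overlap, as were 51.5% of the genes tested, 30.5% with clodronate higher and 21% with clodronate lower. Mrc1 overlapped between the groups (-0.79 ± 1.16, adjusted p = 0.78) as did Cd163 (-0.40 ± 1.46, adjusted p = 0.921), and Mertk, with 16.9 and 9.36 against 19.2 and 17.1 FPKM, was higher with clodronate in both pools (0.36 ± 0.49, adjusted p = 0.762). The calls did not hold without clodronate pool 1 or without PBS pool 2. Without clodronate pool 2 more members and more of all genes were called. Each of these fits leaves 1 pool in a group.

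A further pair of libraries with 100 bp reads, 1 pool of each liposome, was not part of that test and has no replicate. Csf1r had 18.7 FPKM with PBS and 0.772 FPKM with clodronate, from 364 and 17 counts, and Cd14 had 82.9 and 6.89 FPKM. Their log2 differences were -4.60 and -3.59. Itgam differed by -3.46, Fcgr1 by -3.25 on 42 and 5 counts, Lyz2 by -2.95, Cd68 by -1.72 and Emr1 by -1.70, and Mertk and Mrc1 by -0.39 and -0.33. These 7 larger differences had the sign of the replicated comparison, and Mertk had the opposite sign. Of the ligands and partners, Fcer1g (-3.39 ± 0.53, adjusted p = 0.0484) and Itgb2 (-2.99 ± 0.40, adjusted p = 0.0367) were called lower in the replicated comparison. Gas6, at 1.93 ± 0.44, had an adjusted p of 0.126. Of 19 other mononuclear phagocyte genes 1 fell, Laptm5, with a median of -2.43 over the list. The neutrophil sum was 58.7 to 73.2 FPKM with clodronate and 177 to 507 FPKM with PBS liposomes, and the smooth muscle sum 1488 to 1626 FPKM and 1829 to 3619 FPKM. Their part in the members' values was not tested.

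Granulocyte depletion called 0 of 10 members with edgeR, beside 0% of genes tested, and 0 with DESeq2, beside 1.28%. An unadjusted p under 0.05 was found for 1 member, Cd14, beside 18.1% of genes. Cd14 had 29.9 and 25.1 FPKM with anti-Gr1 against 76.3 and 39.8 FPKM with IgG (-1.06 ± 0.47, edgeR adjusted p = 0.269). Lyz2 had 752 and 997 against 1988 and 1869 FPKM (-1.12, adjusted p = 0.325) and Csf1r 26.6 and 23.7 against 47.3 and 41.1 FPKM (-0.80, adjusted p = 0.421). Neither overlapped, nor did 51.1% of genes. Emr1 had 5.34 and 5.10 FPKM against 6.87 and 6.03 FPKM, and Itgam, at 3.35 and 9.11 FPKM, differed by over 2-fold between the anti-Gr1 pools and lay below both IgG pools. Mertk reached 56.5 FPKM in anti-Gr1 pool 2, against 17.2 FPKM in pool 1. The neutrophil sum was between 24.2 and 49.3 FPKM, with 0 to 4 of 12 markers at 0, against 132 to 459 FPKM with IgG, and 0 of its 11 genes tested were called. Monocyte markers summed to 74.5 to 85.5 FPKM with anti-Gr1 and 177 to 238 FPKM with IgG, fibroblast markers to 288 to 448 and 115 to 138 FPKM, and endothelial markers to 2621 to 2733 and 1795 to 2145 FPKM. Their part in the members' values was not tested.

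The 3 treatments can be set side by side, with the caution that anti-GPIba and anti-Gr1 share their IgG controls. For Csf1r the log2 fold-changes were -3.89 with anti-GPIba, -3.78 with clodronate and -0.80 with anti-Gr1, and for Cd68 -2.37, -2.38 and -0.78. Tested directly, anti-GPIba against anti-Gr1 called 0 of 10 members with edgeR, beside 0% of genes, while 6 had unadjusted p-values under 0.05, beside 10.5% of genes, and DESeq2 called 6, beside 2.65%. Csf1r was at -3.09 ± 0.58 (adjusted p = 0.101) and Itgam at -4.51 ± 0.95 (adjusted p = 0.117). The difference between the clodronate effect and the anti-GPIba effect called 0 members with edgeR and 0 with DESeq2, beside 0% of genes. Itgam alone had an unadjusted p under 0.05, beside 3.24% of genes, its fall with clodronate being smaller by 2.97 ± 1.2 on the log2 scale (edgeR).

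**Figure D2:**
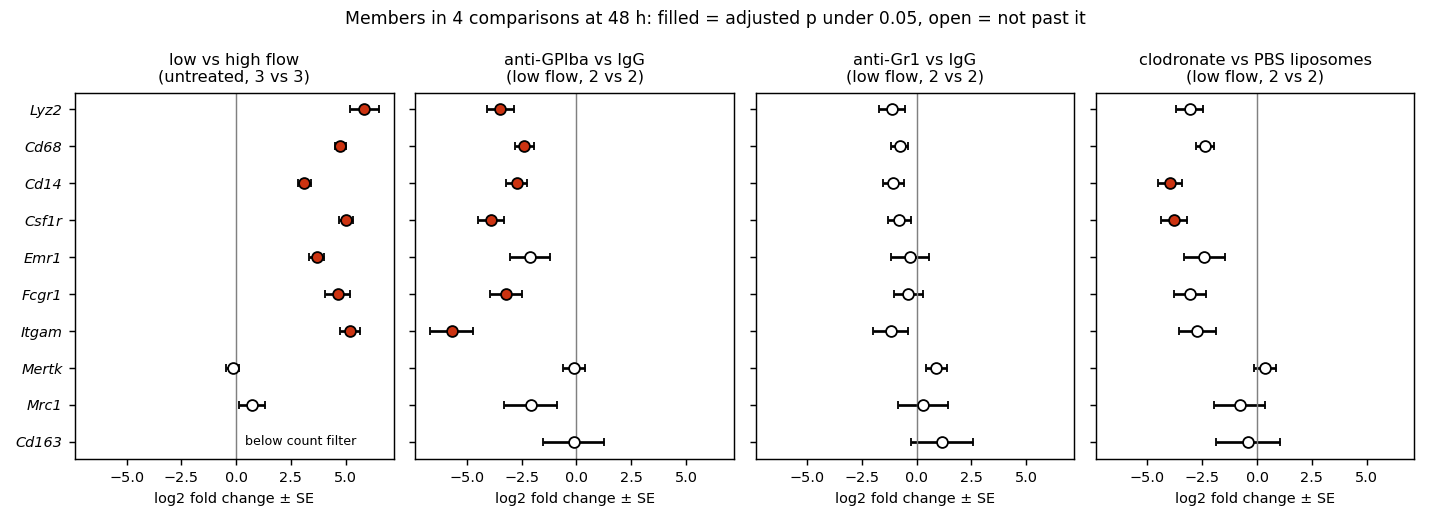
Log2 fold-change of each member, with its SE, in 4 comparisons at 48 hr, on a shared horizontal scale. Filled points have an adjusted p under 0.05 with edgeR, open points do not, and Cd163 was below the count filter in the untreated pools. The 7 filled points of the flow comparison lie to the right of 0 and the 6 of anti-GPIba to the left. In the clodronate panel 2 are filled and in the anti-Gr1 panel none, and Mertk is open in each panel.

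Low-flow arteries of treated mice were also compared with the high-flow arteries of the matching control. With anti-Gr1 5 of 10 members remained called higher than in IgG high-flow intima, beside 7.42% of genes, namely Cd68 (3.11, adjusted p = 0.00526), Csf1r (2.99, adjusted p = 0.0105), Fcgr1 (3.63, adjusted p = 0.014), Lyz2 (2.75, adjusted p = 0.0178) and Cd14 (1.64, adjusted p = 0.0468). A fit on the compared groups alone called 1 member, beside 2.13% of genes. Without high-flow IgG pool 1 there were 2, and without anti-Gr1 pool 2 there were 3. Without high-flow IgG pool 2 Cd14 and Fcgr1 lost their call and Emr1 and Mrc1 gained one. With anti-GPIba 0 of 10 members were called by edgeR against the same high-flow pools, beside 7.7% of genes, while 2 had unadjusted p-values under 0.05, beside 27% of genes, and DESeq2 called 1, beside 16.3%. Without high-flow IgG pool 2 there were 3, namely Cd68, Emr1 and Mrc1. Cd68 was nearest to the threshold, at 1.52 ± 0.43 (adjusted p = 0.0529), its 8.59 and 9.80 FPKM lying above the 1.60 and 4.25 FPKM of the high-flow pools. With clodronate 0 of 10 were called against PBS liposome high-flow intima, beside 7.41% of genes, while 1 had an unadjusted p-value under 0.05, beside 25.1% of genes, and DESeq2 called 0, beside 14.8%. Cd68 was at 1.16 ± 0.43 (adjusted p = 0.121). These comparisons again set runs against each other along with flow.

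**Figure D3:**
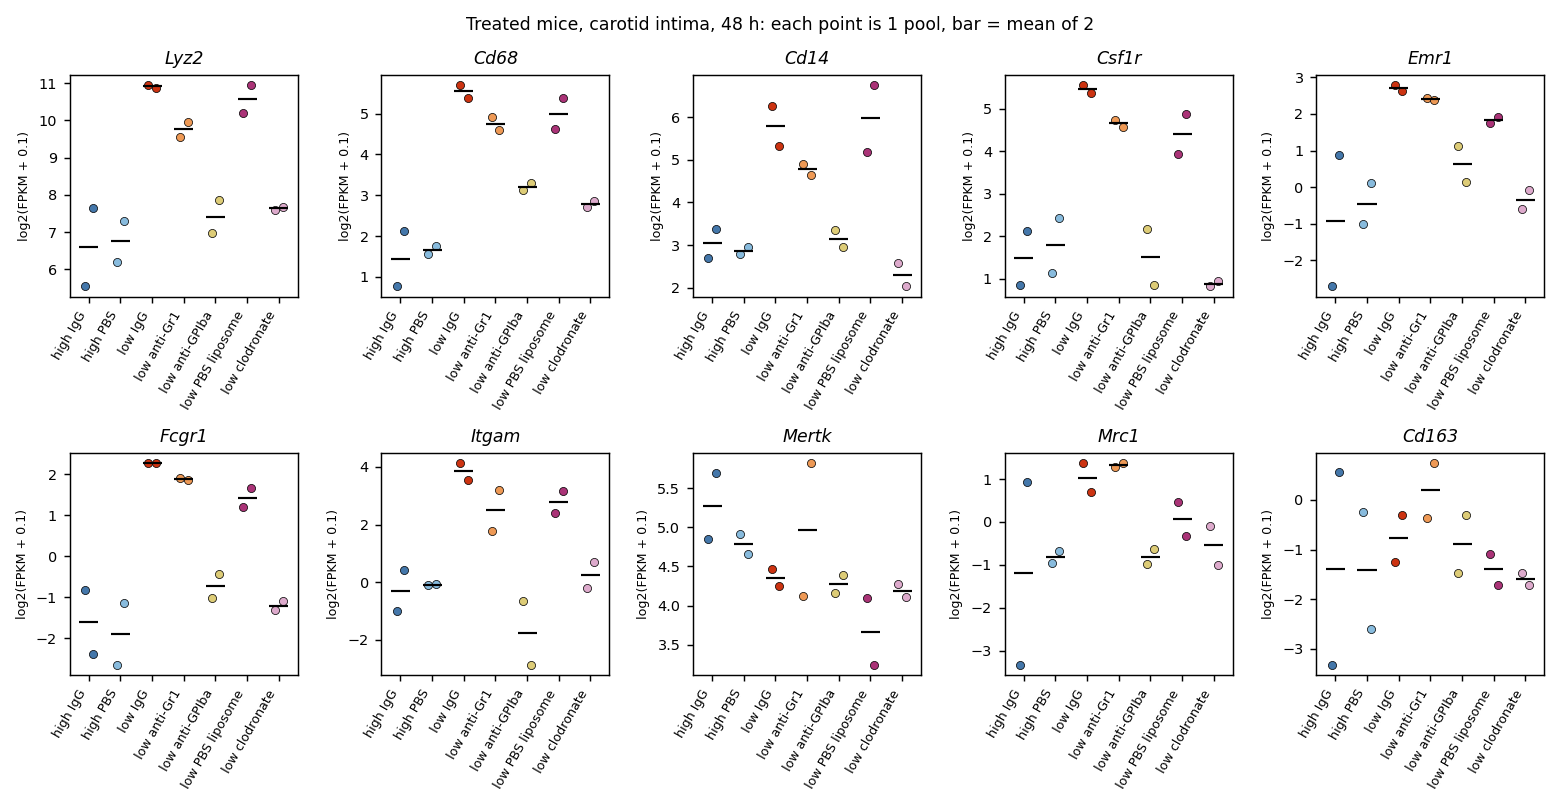
Level of each member in the treated mice at 48 hr, as log2(FPKM + 0.1) on the vertical axis, with 1 point per pool and a bar at the mean of 2 pools. For Csf1r the low-flow IgG pools lie at 47.3 and 41.1 FPKM, the anti-Gr1 pools at 26.6 and 23.7 FPKM, and the anti-GPIba and clodronate pools between 1.67 and 4.39 FPKM, near the high-flow pools. The vertical scale differs between genes.

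How alike the members were across these libraries was described by correlation over the 23 arterial libraries at 48 hr, on log2(FPKM + 0.1). The libraries share runs and treatments and fall into low and high groups, so the coefficients describe these libraries and carry no test. Each member was set against the mean of the other 9. Emr1 followed them most closely (r = 0.929), then Csf1r (0.903), Lyz2 (0.870), Itgam (0.861), Cd68 (0.842), Fcgr1 (0.795), Cd14 (0.749) and Mrc1 (0.696). Cd163 (0.278) and Mertk (-0.10) did not follow them. Among 11203 genes ranked, those most like the mean of the members were Rassf4 (r = 0.959), Ptpro (0.953), Ccl9 (0.949), Ncf1 (0.949) and Fgd2 (0.943). Ncf1 encodes a subunit of the phagocyte NADPH oxidase and Ccl9 a chemokine. With a pseudocount of 1 the ranks of these 5 genes were 1, 23, 7, 2 and 10.

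Proportions among members also differed between sets of libraries. Csf1r stood at 0.247 to 0.361 of the Cd68 level in the untreated low-flow pools, at 0.907 to 0.993 in the low-flow IgG pools and at 0.629 to 0.703 in the low-flow PBS liposome pools. The 100 bp PBS liposome library, of the same treatment as the last, was at 0.332. Read length differed between these sets. When the 150 bp reads were trimmed to 100 bp by the authors, Cd68 changed by a median factor of 1.2 (0.954 to 1.35) and Csf1r by 0.954. No main test was therefore made across these sets. An alternative fit of clodronate against PBS liposomes added the 100 bp libraries with a term for read length.

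The members are spread over the genome, and 2 pairs of them share a chromosome without being neighbours. In the mm9 assembly used for the deposited values, Cd14 lies on chromosome 18 from 36884728 to 36886390 on the minus strand and Csf1r on the same chromosome from 61265226 to 61291803 on the plus strand. Mrc1 (14151041 to 14253684) and Mertk (128524692 to 128628630) are both on the plus strand of chromosome 2. Cd68 spans 69477715 to 69479655 on chromosome 11 (minus), Emr1 57498109 to 57622952 on chromosome 17 (plus), Fcgr1 96086832 to 96098179 on chromosome 3 (minus), Itgam 135206154 to 135271674 on chromosome 7 (plus), Cd163 124254669 to 124280545 on chromosome 6 (plus) and Lyz2 116714390 to 116719377 on chromosome 10 (minus), next to Lyz1. Each value is a sum over the whole gene, exons of all its annotated transcripts together.

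At 7 days, the question was whether endothelial loss of Rbfox2 changed the members. Rbfox2 itself had 3.27, 5.73 and 2.74 FPKM in the low-flow control pools 1, 4 and 5 and 1.09, 0.169 and 0.622 FPKM in the low-flow EC-KO pools. At high flow it had 3.66 and 3.84 FPKM in controls and 0.791 and 1.05 FPKM in EC-KO pools. The groups did not overlap. No member was called between EC-KO and control at low flow with edgeR, beside 0% of genes tested. An unadjusted p under 0.05 was found for 1, beside 6.59% of genes, and DESeq2 called 0, beside 0.0974%.

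Emr1 had 3.62, 14.1 and 1.06 FPKM in the low-flow control pools and 13.6, 23.9 and 12.9 FPKM in the EC-KO pools (1.47 ± 0.87, adjusted p = 0.692). Cd68 had 15.4, 37.7 and 9.20 FPKM in controls and 32.7, 39.8 and 32.3 FPKM in EC-KO pools (0.79 ± 0.61, adjusted p = 0.73). Csf1r had 11.5, 66.5 and 10.0 FPKM in controls and 35.8, 59.1 and 37.5 FPKM in EC-KO pools (0.63 ± 0.76, adjusted p = 0.826). In each of the 3 genes control pool 4 lay far above control pools 1 and 5, the EC-KO pools lay closer together, and the groups overlapped through control pool 4.

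Control pool 4 was the highest of the control pools for all members but Cd163. It had 26.2 FPKM of Itgam against 2.18 and 2.35 FPKM in control pools 1 and 5, and 56.3 FPKM of Cd14 against 12.8 and 9.38 FPKM. The EC-KO pools had 2.98, 8.76 and 7.38 FPKM of Itgam (-0.65 ± 0.88, adjusted p = 0.846) and 18.2, 17.7 and 14.1 FPKM of Cd14 (-0.61 ± 0.58, adjusted p = 0.772). Neutrophil markers summed to between 14 and 218 FPKM in the control pools and 5.72 to 17.2 FPKM in the EC-KO pools, with 2 to 6 of 12 at 0. Fibroblast markers summed to 138 to 458 FPKM in the control pools and 503 to 1863 FPKM in the EC-KO pools, without overlap. Their part was not tested. Lyz2 had 195, 1019 and 249 FPKM in controls against 373, 958 and 742 FPKM (0.54 ± 0.62, adjusted p = 0.82), and Mrc1 1.40, 3.68 and 1.18 against 2.48, 9.21 and 1.41 FPKM (1.12 ± 0.79, adjusted p = 0.716). Fcgr1 had 0.962, 3.74 and 1.39 against 2.52, 5.01 and 1.74 FPKM. Cd163 had 45, 21 and 0 counts in controls and 9, 0 and 9 in EC-KO pools. All 10 members overlapped between the genotypes. The column numbers 4 and 5 are not replicate numbers of the labels, so no pairs were read between the genotypes. With the number as a block, Emr1 was at 2.00 (edgeR, adjusted p = 0.444) and 0 members were called, beside 0% of genes.

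Mertk was the member with an unadjusted p under 0.05, at 17.7, 17.9 and 13.4 FPKM in low-flow controls and 30.3, 27.3 and 16.9 FPKM in EC-KO pools (0.64 ± 0.25, edgeR adjusted p = 0.692). At high flow it had 22.7 and 29.5 FPKM in controls and 17.8 and 18.8 FPKM in EC-KO pools (-0.56 ± 0.30, edgeR adjusted p = 1). At high flow 0 members were called by edgeR, beside 0.00749% of genes, while 0 had unadjusted p-values under 0.05, beside 2.19%, and DESeq2 called 0, beside 0.195%. The interaction of genotype and flow called 0 members by edgeR, beside 0% of genes, and 0 with DESeq2, beside 0.0824%. Mertk was the only one at an unadjusted p under 0.05, beside 4.03% of genes.

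Flow at 7 days was tested within each genotype. In controls, 1 of 10 members was called higher at low flow, Cd68, beside 0.959% of genes, while 8 had unadjusted p-values under 0.05, beside 25% of genes, and DESeq2 called 7, beside 16.4%. One of the 8, Mertk, was lower at low flow (-0.77 ± 0.27, adjusted p = 0.121). Cd68 had 15.4, 37.7 and 9.20 FPKM at low flow and 1.81 and 0.206 FPKM at high flow, the latter from 23 and 2 counts (4.23 ± 0.85, adjusted p = 0.0401). Lyz2 (2.97 ± 0.79, adjusted p = 0.0666), Mrc1 (3.89 ± 1.08, adjusted p = 0.0713), Emr1 (4.10 ± 1.2, adjusted p = 0.0783) and Csf1r (3.38 ± 0.99, adjusted p = 0.0783) did not pass the test. Their groups did not overlap, as was the case for 39.7% of the genes tested, 24.1% with low flow higher and 15.6% with low flow lower. Without low-flow control pool 1, 7 members were called, beside 29.4% of genes. Without low-flow control pool 4 or pool 5, 0 were, beside 0.392% and 0.255% of genes. Leaving out a high-flow pool leaves 1 in its group, and the call of Cd68 did not hold there either. With the column number as a block, 7 were called, beside 22% of genes. Mrc1, whose untreated groups overlapped at 48 hr, had 1.18 to 3.68 FPKM at low flow against 0.223 and 0.0344 FPKM at high flow at 7 days.

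In EC-KO mice 0 of 10 members were called between low and high flow by edgeR, beside 1.09% of genes, while 7 had unadjusted p-values under 0.05, beside 15.7% of genes, and DESeq2 called 7, beside 7.03%. Emr1 had 13.6, 23.9 and 12.9 FPKM at low flow and 0.367 and 0.269 FPKM at high flow (5.72 ± 1.28, adjusted p = 0.0689), Cd68 32.7, 39.8 and 32.3 against 2.42 and 2.51 FPKM (3.81 ± 0.81, adjusted p = 0.0612), and Csf1r 35.8, 59.1 and 37.5 against 1.87 and 1.94 FPKM (4.53 ± 1.05, adjusted p = 0.077). None of these passed the test, and their groups did not overlap, like those of 43.6% of genes. With the column number as a block, 7 members were called in EC-KO mice too, Emr1, Cd68 and Csf1r among them, beside 9.86% of genes. Cd14 had 18.2, 17.7 and 14.1 FPKM against 9.91 and 6.54 FPKM (1.02 ± 0.67, adjusted p = 0.491). Among genes of the other lists, Cx3cr1 was called higher at low flow in both genotypes, at 5.32 ± 0.92 in controls (adjusted p = 0.027) and 7.29 ± 0.98 in EC-KO mice (adjusted p = 0.0146), as was the NADPH oxidase subunit Cybb. The number 1 libraries, which exist for low flow only, were sequenced in another run than the others, and control pool 5 and EC-KO pool 4 of low flow in a further run. In controls the smooth muscle markers summed to 721 to 1082 FPKM at low flow and 150.2 to 191 FPKM at high flow, the monocyte markers to 38.0 to 135 and 9.08 to 11.5 FPKM and the endothelial markers to 1876 to 3189 and 5064 to 5181 FPKM. In EC-KO mice they were 639 to 1023 and 136 to 159 FPKM, 50.5 to 118 and 8.67 to 30.6 FPKM, and 2543 to 2889.8 and 5338 to 5509.6 FPKM. Their part was not tested.

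**Figure D4:**
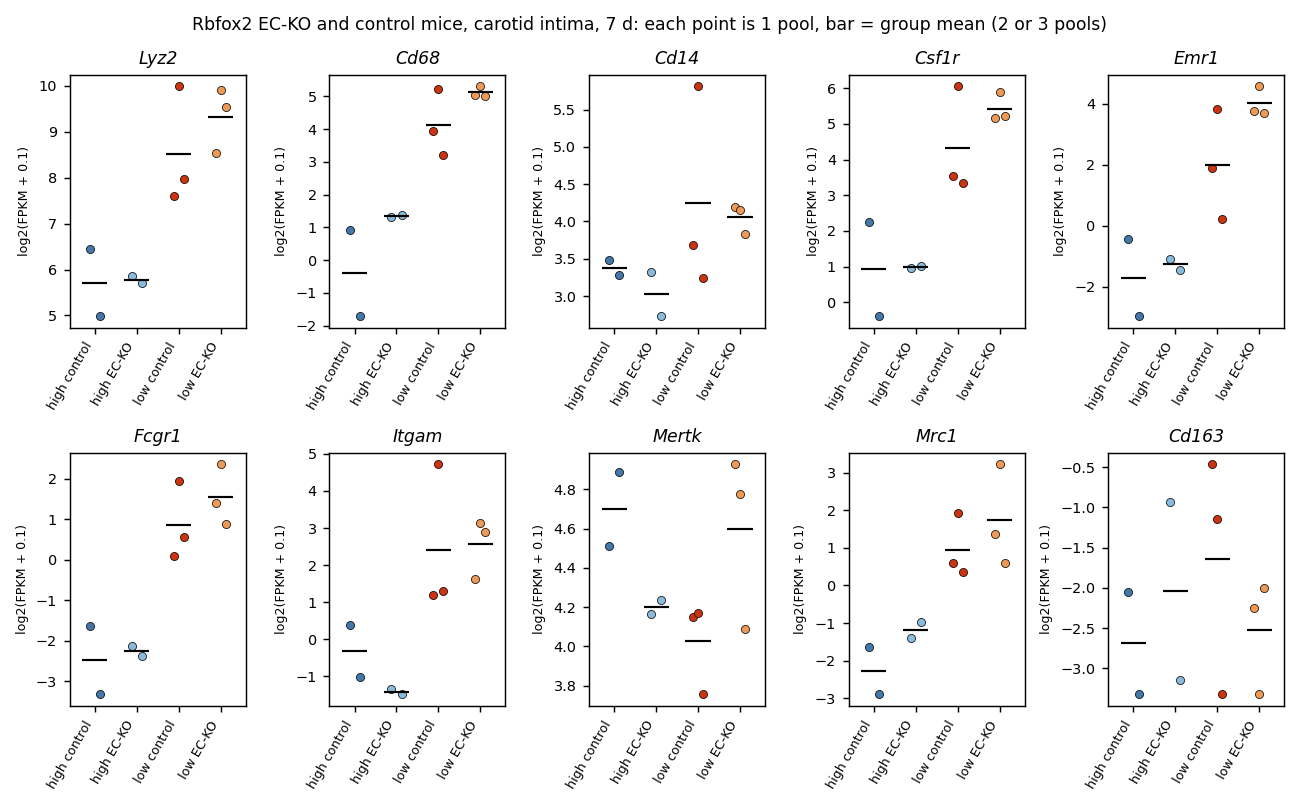
Level of each member at 7 days in high-flow and low-flow intima of control and Rbfox2 EC-KO mice, as log2(FPKM + 0.1) on the vertical axis, with 1 point per pool and a bar at the mean of 2 or 3 pools. In the Cd68 panel the low-flow points lie between 9.20 and 39.8 FPKM and the high-flow points between 0.206 and 2.51 FPKM, and the low-flow points of the genotypes overlap. The vertical scale differs between genes.

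The ratio of Cd68 to Emr1 stood at 2.67 to 8.65 in low-flow controls at 7 days and at 1.66 to 2.5 in low-flow EC-KO intima. At 48 hr it was 9.64 to 16.1 in the untreated low-flow pools, and in the treated low-flow pools, which share the 150 bp reads of the 7 day libraries, 6.86 to 7.60 with IgG, 7.43 to 11.3 with PBS liposomes and 4.71 to 5.59 with anti-Gr1. The IgG and anti-Gr1 values lay within the range of the 7 day controls. Between the genotypes at 7 days the lowest control ratio, 2.67, lay above the highest EC-KO ratio, 2.5. Cd14 relative to Cd68 was at 0.833 to 1.5 in these controls and 0.437 to 0.557 in the EC-KO pools, also without overlap. Csf1r relative to Cd68 overlapped between the genotypes, at 0.749 to 1.77 in controls and 1.09 to 1.48 in EC-KO pools. These ratios were looked at after the levels were seen and are given as descriptions. No member level separated the genotypes, and how many ratios of other genes would separate these pools was not computed.

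The cultures hold 1 library each, so values are given with the counts behind them, intervals in the plot are exact 95% Poisson intervals for counting error only, and no difference has a replicate check. A gene counted as past the fold when it differed at least 2 times with at least 10 counts in the higher library. The eGFP-sorted and the 2 other primary cultures read the endothelial markers at sums of 1669 to 2038 FPKM. In the immortalized line the sum was 102 to 148 FPKM, and in the untreated line Pecam1 stood at 55.0 FPKM, Cdh5 at 2.17 FPKM, Cldn5 at 0.161 FPKM and Erg at 0.0329 FPKM, so that several defining endothelial markers were near 0.

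In the untreated line Emr1, Fcgr1, Itgam and Cd163 had 0 counts, Csf1r had 2, Mrc1 3 and Lyz2 7. Cd14, Cd68 and Mertk were read in it without added blood cells, at 12.5 FPKM from 248 counts, 3.16 FPKM from 40 counts and 12 FPKM from 602 counts. With platelets and bone-marrow-derived cells that the labels call macrophages, 6 of the 8 members considered were past the fold, beside 6.01% of genes. Lyz2 reached 338 FPKM from 4334 counts, 646 times its untreated level, which itself rests on 7 counts. Csf1r reached 4.83 FPKM from 253 counts and Cd68 9.80 FPKM, 3.10 times its untreated level. Emr1 with 58 counts, Itgam with 60 and Fcgr1 with 25 were at least 20.2-fold, 20.9-fold and 8.70-fold higher, taking 3 counts as the floor of the untreated library. Cd14, at 1.79 times, and Mertk, at 0.903 times, were not past the fold.

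With plasma alone 2 of the 3 members considered were higher and past the fold, beside 5.51% of genes. Cd14 was at 36.6 FPKM from 693 counts, 2.93 times its untreated level, and Cd68 at 7.12 FPKM, 2.26 times. Mertk stood at 8.83 FPKM, 0.734 times. The library with plasma alone held 0 counts of Emr1, Fcgr1 and Itgam, 5 of Lyz2 and 7 of Csf1r. Platelet markers summed to 4.61 FPKM in it, against 2.27 FPKM in the untreated line, with 5 of 9 at 0 in both, and erythroid markers to 3.11 FPKM against 0.471 FPKM. Their part was not tested.

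With plasma, platelets and macrophages together, 8 of the 9 members considered were higher, beside 9.33% of genes, and 1, Mertk, was lower, beside 13.7%. Cd14 reached 61.1 FPKM from 1355 counts (4.89 times the untreated line), Itgam 4.25 FPKM from 316 counts (at least 94.2-fold higher), and Mrc1 0.613 FPKM from 52 counts (15.5 times, on 3 untreated counts). Mertk was at 4.51 FPKM from 252 counts, 0.374 times its untreated level. Its ligand Gas6 was at 14.7 FPKM in this library and at 99.9 FPKM in the untreated line, while Pros1 was at 99.0 and 75.3 FPKM.

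Compared with platelets and macrophages alone, the library with plasma as well had 3 of 9 members higher and past the fold, beside 8% of genes, and 2 lower, beside 11.1%. Mrc1 was 11.1 times (52 against 4 counts), Itgam 4.51 times and Cd14 2.73 times as high, Csf1r was 0.440 times and Mertk 0.415 times. Emr1 (75 against 58 counts) and Fcgr1 (28 against 25 counts) were close, at 1.11 and 0.960 times on the FPKM scale. The summed neutrophil markers were 1.75 FPKM without plasma, with 4 of 12 at 0, and 22.3 FPKM with it, with none at 0, and their part in these differences was not tested.

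The primary cultures from EC-KO and control mice differed in 6 of the 7 members considered, all lower in the EC-KO library, beside 6.4% of genes. The control library held 4166 counts of Lyz2 (313 FPKM), 72 of Emr1, 63 of Itgam, 55 of Cd14, 50 of Cd68 and 48 of Csf1r, and the EC-KO library 5, 0, 0, 6, 8 and 0. Lyz2 was 568-fold lower in the EC-KO library, Cd14 6.25-fold and Cd68 4.26-fold, while Emr1, Itgam and Csf1r were at least 16.4-fold, 14.3-fold and 10.9-fold lower. Mertk was read alike in the control and EC-KO libraries, at 51.6 and 50.0 FPKM from 2560 and 1695 counts, the highest Mertk levels of the cultures. Rbfox2 was at 9.33 FPKM in the control culture and 0.675 FPKM in the EC-KO culture. Both were sorted on Cd31 and Icam2, and with 1 library each the genotype and the cells carried through that sort cannot be told apart. The eGFP-sorted culture had 21.8 FPKM of Cd68 from 94 counts with 0 counts of Emr1, Itgam and Fcgr1 and 8 of Lyz2.

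**Figure D5:**
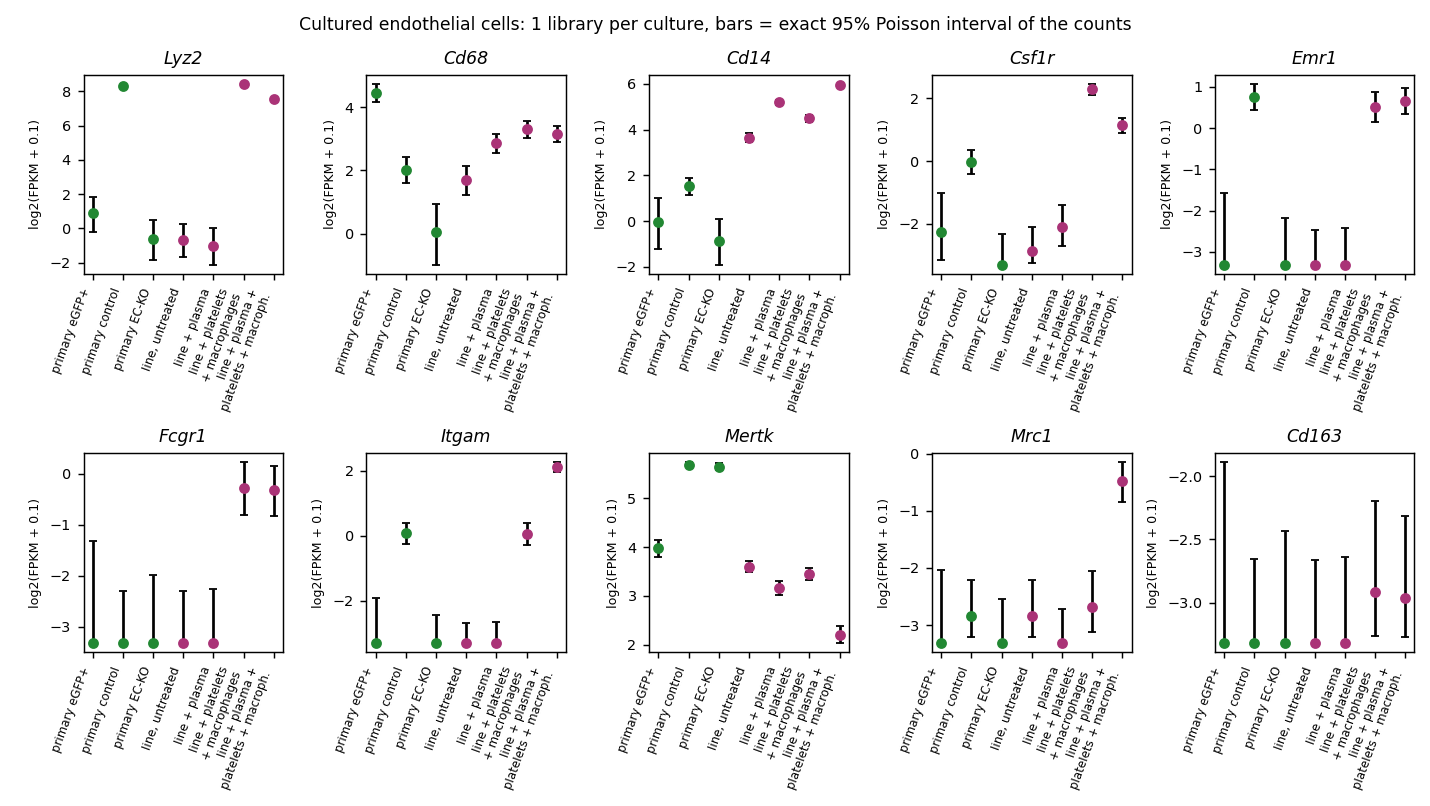
Level of each member in the 7 cultures, as log2(FPKM + 0.1) on the vertical axis, with 1 library per culture and exact 95% Poisson intervals of the counts as bars. Lyz2, Emr1 and Itgam are high in the primary control culture and in both line libraries with platelets and macrophages, and are at or under 8 counts in the other cultures. Cd14 is highest, at 61.1 FPKM, in the line with all additions, where Mertk is lowest, at 4.51 FPKM.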

How the data were processed

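RNA from intimal flushes and cultured cells, labelled as polyA RNA, was made into libraries with the SMARTer Universal Low Input kit. The study's methods give a first-strand setting for a separate Tophat alignment of the untreated libraries and none for the counts used here. The authors aligned reads and quantified genes with the tools their processing notes name (STAR 2.5.1b, RSEM 1.2.15, mm9) and deposited 1 table for the series, with the expected counts and RPKM values of each library and an effective length for each gene. The deposited expected counts were rounded to whole numbers (5.20% to 19.3% of values were not whole). The effective length is the authors' own value, 1 per gene for all libraries, in bases. Of 204 value columns, 129 were not used: TPM values, most RPKM values, second runs of the untreated pools, columns whose library has a repeat column and columns that match no label. The table has 21675 rows, of which 1 without a gene name was left out (at most 0.117% of a library).

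FPKM was computed as counts scaled by effective length and by the library's total on named genes. It stood at a median of 0.928 to 0.952 times the deposited RPKM values, which were an alternative for levels. It is read from a pseudocount of 0.1 on the log2 scale. Exact Poisson intervals (95%) and floors of 3 counts cover counting error only. Members with few counts are the least precise.

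Samples were grouped by the labels. Genes were tested with edgeR 4.0.16 in R 4.3.3 (quasi-likelihood, TMM, filterByExpr), with only the groups compared in the untreated arteries and 1 fit each over all groups of the treated and of the 7 day arteries, and p-values were adjusted by Benjamini-Hochberg over all genes tested, with 0.05 as threshold. DESeq2 1.42.0, library totals, another filter, fits on the compared groups only (on all 3 groups for the untreated arteries), a replicate block and leaving out each library were the alternatives. The tests were checked on simulated counts. Cultures were compared by a fold of at least 2 with at least 10 counts in the higher library. Values were summarised with Python 3.11.15, pandas 2.3.3, numpy 2.4.6, scipy 1.17.1 and drawn with matplotlib 3.10.9. In the 7 day low-flow pools, same-numbered libraries of control and EC-KO mice correlated at r = 0.17 to 0.489. The numbers 4 and 5 are not replicate numbers of the labels, and their low-flow control and EC-KO libraries came from different runs. The numbers therefore do not establish pairs, and the replicate block, used as an alternative only, left 0 members called between the genotypes.

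The members, gene lists and tests were chosen with earlier results of these data known. Named genes were all 10 members, the 5 genes most like them and, from each other list, up to 3 called genes per comparison with the largest changes and without overlap between groups. Genes named beyond these, such as other ligands and partners, Cx3cr1 and Cybb at 7 days and the endothelial genes of the line, were picked after their values were seen.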

Additional observations from a re-analysis of the deposited data

Results flagged for a closer look

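Mertk is the 1 result marked for a closer look. At 7 days its log2 genotype difference (EC-KO minus control) was 1.2 ± 0.39 higher at low than at high flow (edgeR interaction, adjusted p = 0.986). This difference does not pass adjustment over all genes tested. At low flow the genotypes overlapped, with 13.4 to 17.9 FPKM in controls and 16.9 to 30.3 FPKM in EC-KO pools. At high flow the EC-KO pools, at 17.8 and 18.8 FPKM, lay below the controls, at 22.7 and 29.5 FPKM, as held for 15.3% of genes.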

How the results depend on the processing

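Over 41 called member values, 395 recomputations under other settings gave 0 changes of sign, and of 190 counts of called members 148 were within 1.5 times the value reported. The rest concern groups of 2 or 3 pools, and the cause was not tested. For clodronate against PBS liposomes (2 called) DESeq2 gave 6, library totals 1, a looser filter of at least 1 count in total 4 and the compared groups alone 0. Reads trimmed to 100 bp gave 5, and adding the 100 bp libraries with a term for read length gave 7. Leaving out a library, which leaves 1 pool in its group, moved the count in both directions. For anti-GPIba against anti-Gr1 (0) the same settings gave 6 with DESeq2, 2 with the looser filter, 2 with the compared groups alone and 3 with trimmed reads, and 0 to 1 when a library was left out. For low-flow anti-GPIba against high-flow IgG (0) DESeq2, library totals, the looser filter and the compared groups alone gave 1 each, and leaving out a library 0 to 3. For low-flow anti-Gr1 against high-flow IgG (5) the compared groups alone gave 1 and leaving out a library 2 to 5. Leaving out a library gave 0 to 3 for anti-GPIba against IgG, 6 to 9 for IgG low against high flow and 4 to 6 for the PBS liposome flow comparison. At 7 days, low against high flow in controls (1) gave 7 with DESeq2, 2 with the looser filter, 0 with the compared groups alone, 7 without the number 1 libraries and 0 to 7 when a library was left out. In EC-KO mice (0) these were 7, 4, 6, 5 and 0 to 0. Trimming and leaving out the number 1 libraries were chosen after seeing the data.

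With the replicate number as a block, clodronate against PBS liposomes called 4 members, low-flow anti-GPIba against high-flow IgG 1, and low against high flow at 7 days 7 in controls and 7 in EC-KO mice. It moved no other count of members by over 1.5 times. In the treated mice the same-numbered libraries correlated at -0.155 to 0.443 over all treatments. Low-flow and high-flow libraries of the same number correlated at -0.0166 in IgG mice and 0.378 in PBS liposome mice, and at -0.0322 to 0.22 at 7 days. Whether libraries of the same number share mice is not given by the labels.

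Both reversals came from leaving out high-flow IgG pool 2, which leaves a lone pool at 0 counts, so the fitted value depends on the prior count. Cd163 in the IgG flow comparison (-0.51) ranged from -1.50 to 8.16 and Mrc1 in low-flow anti-GPIba against high-flow IgG (-1.08) from -2.06 to 8.25. Both passed the threshold there (edgeR, adjusted p = 0.0438 and 0.0228) and not in the fit reported. The count over all genes moved more than that of members: 320 genes were called between low and high flow in 7 day controls and 3897 without control pool 1, and the genotype comparison at low flow went from 0 to 1476 without control pool 1. Anti-GPIba against IgG called 2216 genes, and fewer when any library was left out. Clodronate against PBS liposomes called 16, with 462 by DESeq2 and 0 in the fit on the compared groups alone. Leaving out a library moved that count in both directions. Where 1 pool is left in a group, it is assumed to vary like the other groups. The second runs of the untreated pools were not run as an alternative, since their columns could not be tied to single samples. With the deposited RPKM in place of FPKM, 23 of 130 member levels moved by more than their spread or counting interval. In the line with platelets and macrophages, Csf1r was 84.3 times its untreated level, which rests on 2 counts, instead of 132 times. Depth limits Cd163, Mrc1 and Fcgr1 most, with several libraries under 10 counts.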
